A study of Mus musculus with 4 samples.

Results

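Dntt-expressing cells of mouse bone marrow are described here: cells with at least 2 unique molecular identifiers (UMIs, 1 per captured transcript) of Dntt, at least 500 UMIs in all, no more than 20% mitochondrial UMIs, and fewer than 3 UMIs summed over the T cell receptor complex genes Cd3d, Cd3e, Cd3g, Trac, Trbc1 and Trbc2. The rule took 598 of 15421 kept cells (18822 deposited). The cells came from 4 inDrop libraries, a droplet method that barcodes the polyadenylated RNA of single cells, made from bone marrow of C57BL/6 mice sorted as lineage negative, Sca1 positive and cKit positive (LSK), the gate that holds haematopoietic stem cells and multipotent progenitors. The groups were chronic myeloid leukaemia (CML) mice given imatinib (16 Dntt cells), CML mice left untreated (259), wild-type (WT) mice given imatinib (19) and WT mice left untreated (304). Imatinib inhibits the ABL1, KIT and PDGF receptor kinases; the dose was 400 mg/kg by stomach tube on alternating days, over 30 days in the protocol and 4 weeks in another label. The labels name neither the transgene or transplant that gave the CML mice their disease nor the sex and number of the animals in a library. Each group was 1 library, so no difference below has a replicate check, no p-value is given, and every interval is a 95% interval that covers counting error only.

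Dntt encodes terminal deoxynucleotidyl transferase, the polymerase that adds untemplated bases at the joints of rearranging antigen receptor genes. In marrow progenitors its transcript comes on early, together with that of the cytokine receptor Flt3, in the lymphoid-primed multipotent progenitors, which are still able to make myeloid cells but have lost most platelet and red cell potential. Lymphoid-primed progenitors then take up Il7r and the recombinase genes Rag1 and Rag2 on the way to B cells, or receive Notch signals on the way to T cells. Dntt lies on chromosome 19 (41029275 to 41059525, plus strand), Flt3 on chromosome 5 (147330741 to 147400489, minus strand), Satb1 on chromosome 17 (51736187 to 51833290, minus strand) and Il12a on chromosome 3 (68690644 to 68698547, plus strand) of the GRCm38 build, by GENCODE vM21.

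The libraries differed in depth and in other ways that touch the results. Dntt cells held a median of 1301 UMIs in CML imatinib, 6258 in CML untreated, 1075 in WT imatinib and 3757 in WT untreated, and summed to 30201, 2022505, 33631 and 1287645 UMIs in the same order. Mitochondrially encoded genes made up a median of 5.71%, 6.68%, 3.61% and 7.48% of their UMIs in that order. Xist, which coats the silenced X chromosome, stood at 3017 CPM (the UMIs of a group of cells summed and scaled to counts per 1000000) in CML untreated and 0.777 CPM in WT untreated Dntt cells. The Y-linked Eif2s3y stood at 2.47 CPM in CML and 80.0 CPM in WT untreated Dntt cells, so that between the untreated libraries a difference in the sex of the animals cannot be told apart from genotype. The Dntt cells of both imatinib libraries held 0 Xist UMIs, with Eif2s3y at 166 CPM in CML imatinib and 59.5 CPM in WT imatinib. The WT imatinib and WT untreated libraries shared 1135 cell names of 5575 and 2863, the other pairs shared 80 to 340, and 0 cells had identical values.

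Dntt cells were common in both untreated libraries and rare in both imatinib libraries. They made up 0.310% of kept cells in CML imatinib (16 of 5167, 0.177 to 0.502%, Clopper-Pearson), 8.54% in CML untreated (259 of 3032, 7.57 to 9.59%), 0.454% in WT imatinib (19 of 4189, 0.273 to 0.707%) and 10.02% in WT untreated (304 of 3033, 8.98 to 11.15%). The intervals of the untreated libraries overlapped, and both lay far above those of the imatinib libraries. Since a deeper cell is more likely to show 2 UMIs, each cell was also thinned to 1000 UMIs, which left out 2087 CML imatinib and 1320 WT imatinib cells and none of the untreated ones. The shares were then 0.0974% (3 of 3080), 3.30% (100 of 3032, 2.69 to 4.00%), 0.139% (4 of 2869) and 5.14% (156 of 3033, 4.38 to 5.99%) in the same order. At equal depth the share was therefore lower in the CML untreated than in the WT untreated library, with intervals that did not overlap, while the shares without thinning overlapped. Thinned to 500 UMIs, they were 0.155%, 1.48%, 0.143% and 2.93%.

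**Figure D1:**
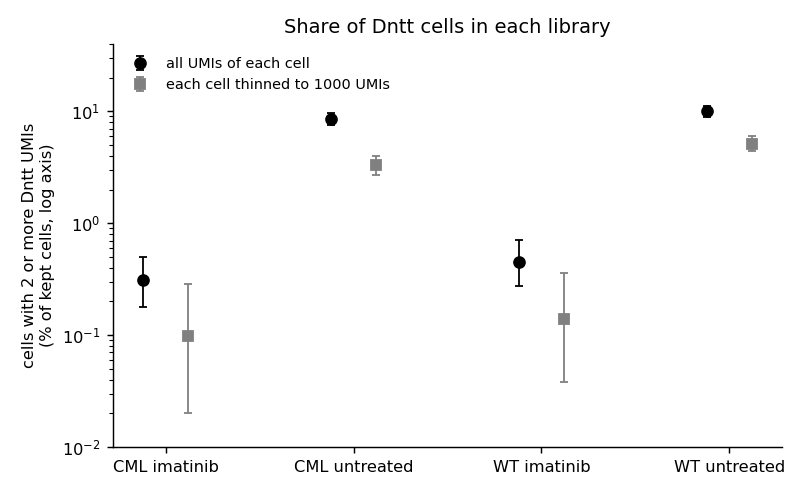
Share of kept cells that were Dntt cells in each library, in percent on a log axis. Shares are shown at full depth and with each cell thinned to 1000 UMIs, and bars are 95% binomial intervals of counting error. The CML untreated and WT untreated libraries stand at 8.54% and 10.02% at full depth, the CML imatinib and WT imatinib libraries at 0.310% and 0.454%.

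Cells of types that should lack Dntt were used to gauge stray transcripts, and the level differed between the types. Among erythroid cells (at least 5 UMIs over Klf1, Car1, Rhag and Ermap), 2 of 201 in CML untreated (0.995%, median 8201 UMIs) and 1 of 128 in WT untreated (0.781%, median 6378 UMIs) had at least 2 Dntt UMIs, well under the shares of all kept cells in those libraries. The erythroid cells of the imatinib libraries held 0 such cells of 147 in CML and 0 of 16 in WT. These allow shares of up to 2.04% and 18.75%. Both limits lie above the shares of Dntt cells there, so erythroid cells could not tell background from expression in these libraries. Granule enzyme cells (at least 30 UMIs over Mpo, Elane, Prtn3 and Ctsg) gave 4 of 1838 in CML imatinib (0.218%) and 3 of 1895 in WT imatinib (0.158%). Flt3 stood at 331 CPM in CML imatinib and 357 CPM in WT imatinib Dntt cells, against 11.9 and 23.6 CPM in cells with 0 Dntt UMIs. In the untreated libraries other types gave higher shares on few cells. Mast cells (at least 10 UMIs over Cma1, Tpsb2, Cpa3, Mcpt8 and Prss34) gave 2 of 57 in CML untreated (3.51%) and 1 of 25 in WT untreated (4%). Plasma cells (at least 5 Jchain UMIs) gave 0 of 53 and 5 of 105 (4.76%). The T cell genes put aside 3 cells in CML untreated and 12 in WT untreated, of 125 and 106 cells with at least 3 T cell UMIs (2.4% and 11.3%). The WT share among T cells was thus not under that of all kept WT untreated cells (10.02%).

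Dntt itself, the gene the rule used, is given as a description. A Dntt cell held a median of 3 Dntt UMIs in CML imatinib (highest 8), 5 in CML untreated (highest 76), 3 in WT imatinib (highest 7) and 5 in WT untreated (highest 63). At least 20 UMIs were found in 34 CML untreated and 22 WT untreated cells, and in no imatinib cell. Summed over the Dntt cells the level was 1920, 1238, 1784 and 1840 CPM in the same order, and over all kept cells 8.16, 123, 8.37 and 192 CPM. The Dntt cells held 95.4% of the Dntt UMIs of the CML untreated library and 93.6% of those of the WT untreated one. Just inside the threshold, the 63 CML and 59 WT untreated cells with exactly 2 Dntt UMIs had Flt3 at 490 and 446 CPM, Satb1 at 362 and 442 CPM and Il12a at 156 and 358 CPM. Just outside it, the 93 CML and 97 WT cells with 1 Dntt UMI had Flt3 at 249 and 386 CPM, Satb1 at 261 and 389 CPM and Il12a at 80.0 and 228 CPM.

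The label given to these cells was checked against their other marker genes. Flt3, the receptor that marks progenitors with lymphoid potential, stood at 547 CPM in CML untreated Dntt cells, against 114 CPM in CML cells with 0 Dntt UMIs, and at 620 CPM in WT untreated Dntt cells, against 114 CPM in WT cells with 0 Dntt UMIs. Satb1, a chromatin organiser of early lymphoid cells, stood at 511 against 136 CPM in CML and 588 against 111 CPM in WT. Il12a, the p35 subunit of interleukin 12, stood at 310 against 58.4 CPM in CML and 395 against 72.2 CPM in WT. Each of the 3 was higher in the Dntt cells of both untreated libraries. All 3 were found together in 85 of 259 CML Dntt cells (32.8%) and in 81 of 2555 CML cells with 0 Dntt UMIs (3.17%), and in 127 of 304 WT Dntt cells (41.8%) and 114 of 2526 other WT cells (4.51%). None of the 3 was found in 20 CML (7.72%) and 13 WT (4.28%) Dntt cells. Since all of these genes come from the cells that Dntt selected, the contrast is a description and carries no test.

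The later lymphoid genes were nearly absent. Rag1 gave 5 UMIs in all CML and 4 in all WT untreated Dntt cells, and Rag2 gave 14 and 20. Il7r, the receptor of common lymphoid progenitors, gave 40 UMIs in CML and 27 in WT, and the 5% of cells with most held 92.5% and 92.6% of them. Dntt cells were also not free of other programmes: at least 2 UMIs of the stem cell factor Hlf were seen in 34 CML (13.1%) and 27 WT (8.88%) untreated Dntt cells, and of the monocyte receptor Csf1r in 16 CML (6.18%) and 16 WT (5.26%). Mpo, the myeloperoxidase of granulocyte precursors, had at least 2 UMIs in 44 CML (17.0%) and 55 WT (18.1%) Dntt cells, against 36.6% of CML and 31.4% of WT cells with 0 Dntt UMIs. The megakaryocyte gene Pf4 reached 2 UMIs in 3 cells of each and the red cell factor Klf1 in 1 CML and 0 WT cells. At least 3 UMIs of mature-cell markers (Jchain and Igha of plasma cells, Hba-a1, Hba-a2, Hbb-bs and Hbb-bt of red cells, Cma1 and Tpsb2 of mast cells, S100a8 and S100a9 of neutrophils) were found in 17 CML (6.56%) and 17 WT (5.59%) Dntt cells. No doublet caller was run, and droplets holding a pair of cells cannot be told apart from cells with mixed programmes.

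**Figure D2:**
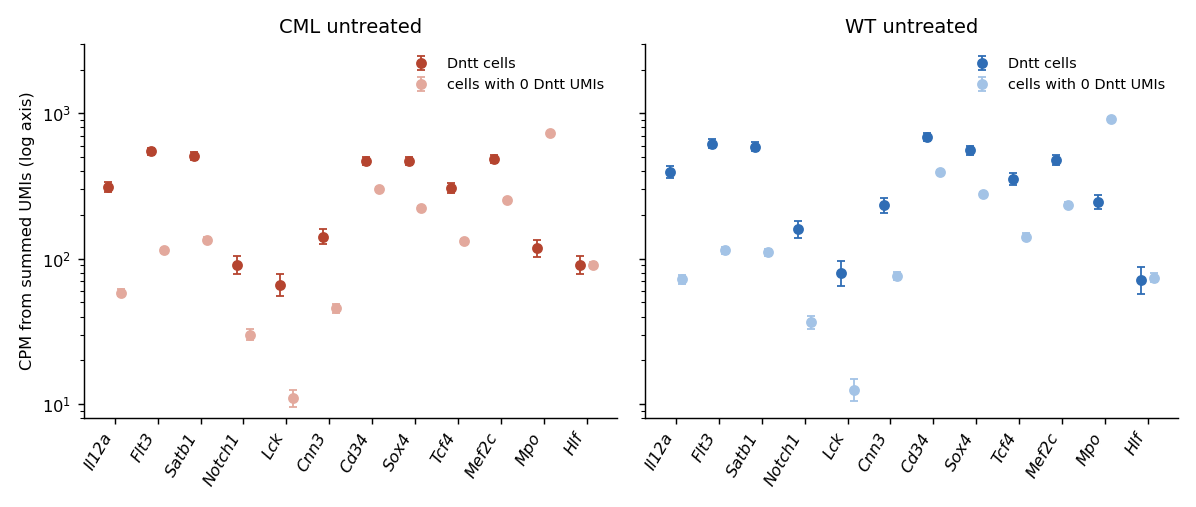
Summed level (CPM, log axis) of 12 genes in Dntt cells and in cells with 0 Dntt UMIs of the CML untreated and WT untreated libraries, with counting intervals. Il12a, Flt3, Satb1, Notch1, Lck and Cnn3 lie higher in the Dntt cells of both libraries, and Mpo lies lower.

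Many other genes set Dntt cells apart in the same way in both genotypes. Counting a gene as different at 2-fold, with at least 50 CPM and 50 UMIs on the higher side, 72 genes of 3937 were higher in Dntt cells than in cells with 0 Dntt UMIs in CML untreated (1.83%) and 83 of 3917 in WT untreated (2.12%), while 75 (1.91%) and 63 (1.61%) were lower. Of 3656 genes tested in both libraries, 60 were higher in CML, 71 in WT and 46 in both, so that 46 is 76.7% of the CML list and 64.8% of the WT list; 60 were lower in CML, 57 in WT and 45 in both, which is 75% and 78.9% of the lists. Cox6a2, a heart and muscle isoform of a cytochrome c oxidase subunit, led the higher genes with 80.1 against 3.63 CPM in CML and 131 against 7.06 CPM in WT. Wfdc17, a secreted whey acidic protein family member, stood at 105 against 13.1 CPM in CML and 137 against 15.02 CPM in WT. Cd33, a sialic acid binding receptor, and Lck, the kinase that signals from the T cell receptor complex, followed, with Lck at 65.8 against 10.9 CPM in CML and 80.0 against 12.5 CPM in WT. Others higher in both libraries were the chemokine Ccl4, the interleukin 1 receptor Il1r1, the phosphatase Dusp5, the receptor Gpr171, the calponin Cnn3 and Notch1, the receptor that directs progenitors to the T lineage, at 91.0 against 30.1 CPM in CML and 159 against 36.4 CPM in WT.

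The genes lowest in Dntt cells included red cell, granulocyte and plasma cell genes. Car1, the carbonic anhydrase of red cell precursors, stood at 23.2 against 234 CPM in CML and 7.77 against 206 CPM in WT. Elane, the neutrophil elastase, stood at 71.7 against 1121 CPM in CML and 206 against 1344 CPM in WT, and Ms4a3, a marker of granulocyte and monocyte precursors, at 17.8 against 262 CPM and 40.4 against 282 CPM. The antibody transcripts of plasma cells were lower too, Igkc at 171 against 4892 CPM in CML and 2114 against 18089 CPM in WT, Igha at 14.3 against 1176 CPM and 800 against 4307 CPM, and Jchain at 4.94 against 902 CPM and 542 against 3364 CPM. The water channel Aqp1, the metallothioneins Mt1 and Mt2 and the lipid carrier Apoe were also lower in both. At a lower floor of 10 CPM in any of the 4 sets of cells, used for the lists of pathway and cell type genes, 180 of 9560 genes were 2-fold higher in the Dntt cells of both libraries (1.88%) and 191 were lower in both (2%). By that rule 13 of the 19 lymphoid priming genes measured were higher in the Dntt cells of both libraries and 1, the immunoglobulin light chain gene Igkc, was lower, the median log2 ratio being 1.42 in CML and 1.79 in WT. Of 18 lymphoid transcription factors 5 were higher in both, and 7 of 10 erythroid, 6 of 10 megakaryocyte and 5 of 13 granulocyte-monocyte genes were lower in both. Held to equal UMI deciles, 41 and 43 genes were higher and lower in both libraries, against 46 and 45 without.

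Dntt cells were also set against 2 classes defined by 1 gene each. Against cells with at least 2 Hlf UMIs and 0 Dntt UMIs (343 in CML, 210 in WT untreated), 42 of 3938 genes were higher (1.07%) and 60 lower (1.52%) in CML and 71 of 3819 higher (1.86%) and 66 lower (1.73%) in WT; of 3564 tested in both, 25 were higher in both and 26 lower in both. Irf8, the factor of dendritic cells and monocytes, stood at 104 against 34.2 CPM in CML and 303 against 76.7 CPM in WT, and Clec12a, a myeloid lectin, at 123 against 41.1 CPM and 236 against 42.9 CPM. Gata2, which is needed by stem cells, stood at 47.5 against 175 CPM in CML and 76.9 against 229 CPM in WT, and the platelet integrin Itga2b at 23.2 against 77.2 CPM and 19.4 against 76.7 CPM. Against cells with at least 2 Csf1r UMIs and 0 Dntt UMIs (111 in CML, 159 in WT), 230 of 4044 genes were higher (5.69%) and 171 lower (4.23%) in CML and 227 of 4047 higher (5.61%) and 164 lower (4.05%) in WT; of 3695 tested in both, 118 were higher in both and 97 lower in both. Hes1, a repressor that Notch induces, was almost absent from the Csf1r cells, at 61.8 against 1.33 CPM in CML and 221 against 6.01 CPM in WT, and Ctla2a, a protease inhibitor of stem and progenitor cells, stood at 517 against 73.2 CPM and 609 against 103 CPM. The transglutaminase F13a1 and the chemokine receptor Ccr2 of monocytes were lower, F13a1 at 9.89 against 174 CPM in CML and 17.9 against 392 CPM in WT.

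Split into tertiles by Dntt CPM, the CML untreated cells (87, 86 and 86 cells, low to high) had Il12a at 135, 309 and 621 CPM, and the WT untreated cells (102, 101 and 101) at 298, 397 and 555 CPM. Notch1 stood at 60.9, 80.5 and 157 CPM in CML and at 105, 115 and 296 CPM in WT, and Ighm, the immunoglobulin heavy chain gene, which is transcribed before it is rearranged, at 163, 297 and 605 CPM and at 470, 596 and 1057 CPM. Some lymphoid genes also stood higher with each tertile and others did not. Flt3 and Satb1 stepped up with each tertile, Flt3 at 402, 594 and 746 CPM in CML and 526, 601 and 796 CPM in WT. Cd52, a surface glycoprotein of lymphocytes, stood at 313, 443 and 456 CPM in CML and at 389, 604 and 529 CPM in WT, and Rag2 stood at 15.8, 16.1 and 14.5 CPM in WT on 9, 6 and 5 UMIs. Mpo went the other way in WT, at 370, 183 and 110 CPM, and in CML stood at 163, 69.0 and 95.9 CPM. Kit, the receptor behind the cKit gate, stood at 177, 112 and 82.2 CPM in CML and at 121, 134 and 116 CPM in WT. The median depth also differed between the tertiles, at 8958, 5272 and 4584 UMIs in CML and 5024, 3517 and 2989 UMIs in WT, since 2 UMIs are a small share of a deep cell; its part in these steps was not tested, and since the split used Dntt itself the steps are a description.

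**Figure D3:**
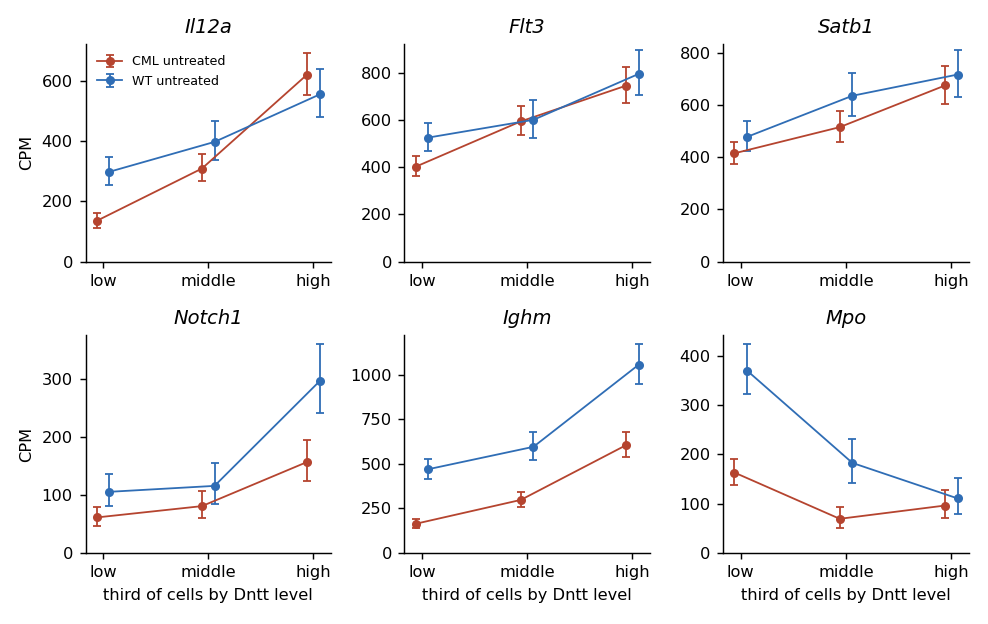
Summed level (CPM) of 6 genes in the low, middle and high tertile of Dntt cells by their Dntt CPM, in the CML untreated and WT untreated libraries, with counting intervals. Il12a, Flt3, Satb1, Notch1 and Ighm step up from the low to the high tertile in both, and Mpo does not.

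The main comparison asked how Dntt cells of untreated CML mice differed from those of untreated WT mice. The marker genes Flt3 and Satb1 were close, and the heat shock genes Hspa1a, Hspa1b and Hsph1 were more than 6-fold higher in CML. At 2-fold, 7 of 14 heat shock and 8 of 19 immediate early genes were higher and none was lower. The Notch target Hes1, the dendritic factor Irf8 and the antibody gene Ighm were lower in CML, as they also were in cells with 0 Dntt UMIs. By the same 2-fold rule, 51 of 3948 genes tested were higher in CML (1.29%) and 34 were lower (0.861%), and the median log2 ratio over all 3948 was -0.0010. In the cells with 0 Dntt UMIs of the same libraries, 21 of 3820 genes were higher (0.55%) and 16 lower (0.419%). Those were 2555 CML and 2526 WT cells, against 259 and 304 Dntt cells. The part of this difference in cell number in the counts of genes was not tested. For the lists, a lower floor of 10 CPM was used, at which 424 of 9219 genes were 2-fold higher (4.6%) and 351 were 2-fold lower (3.81%); the median was -0.0048.

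Heat shock proteins, the chaperones that refold proteins after stress, gave the highest ratios apart from Xist among genes with at least 100 CPM on the higher side. Hspa1b and Hspa1a encode the inducible HSP70, and their copies are nearly identical, so that reads could have been shared between them and each single value is uncertain. Hspa1b stood at 4558 CPM in CML and 144 CPM in WT untreated Dntt cells, 31.7-fold higher in CML (27.4 to 36.9). Hspa1a stood at 1349 CPM in CML and 50.5 CPM in WT, and the sum of both at 5908 CPM in CML and 194 CPM in WT, 30.4-fold higher (26.8 to 34.6). Their promoters are shown because the pair leads that ranking among autosomal genes, and to show how alike the copies are: 296 of 300 bases are identical. Each runs from 250 bases before the gene start to 50 after it on the minus strand of chromosome 17, chr17:34959189-34959488 for Hspa1b and chr17:34972107-34972406 for Hspa1a (RefSeq, GRCm38.p6), and the capitals mark a match to GAANNTTC, the paired repeat that heat shock factors bind.
Hspa1b: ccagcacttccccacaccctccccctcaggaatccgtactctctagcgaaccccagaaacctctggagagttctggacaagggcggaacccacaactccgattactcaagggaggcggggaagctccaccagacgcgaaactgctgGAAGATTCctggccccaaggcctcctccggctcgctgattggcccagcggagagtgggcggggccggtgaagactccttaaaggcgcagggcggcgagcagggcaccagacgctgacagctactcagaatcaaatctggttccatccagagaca
Hspa1a: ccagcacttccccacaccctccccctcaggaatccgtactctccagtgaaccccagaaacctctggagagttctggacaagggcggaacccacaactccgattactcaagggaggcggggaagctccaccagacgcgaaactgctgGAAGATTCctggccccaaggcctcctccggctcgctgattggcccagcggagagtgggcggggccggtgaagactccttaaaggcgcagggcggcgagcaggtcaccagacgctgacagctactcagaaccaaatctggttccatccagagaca
The match starts 104 bases before the gene start in both. The search took GAANNTTC and TTCNNGAA, each its own reverse complement, so both strands were covered; matches of the 2 may overlap each other. Either one stood in 4946 of 32851 promoter windows of the same length (15.1%). Counted in the same way, 10 of 16 windows of the heat shock list held a match (62.5%), and the windows of Dnajb1 held 0. Of the 14 genes of the heat shock list 11 had a window, and 9 of these held a match in at least 1 window, a description of these letters alone.

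Other chaperones were also higher in CML. Hsph1, the HSP110 exchange factor, stood at 465 CPM in CML and 76.1 CPM in WT (6.11-fold), Dnajb1, the HSP40 partner of HSP70, at 415 and 150 CPM, and Dnaja1 at 609 and 292 CPM. Over the list, 7 of 14 genes were higher in CML by 2-fold or more and none was that much lower; the median log2 ratio was 0.88. The constitutive chaperones differed less, Hspa8 at 1550 CPM in CML and 930 CPM in WT and Hsp90ab1 at 2753 and 2210 CPM, and the mitochondrial Hspe1 stood at 577 CPM in CML and 643 CPM in WT. The difference was spread over the cells: 158 CML Dntt cells (61.0%) had at least 10 Hspa1b UMIs, against 4 WT Dntt cells (1.32%), and the median cell held 2723 CPM in CML and 0 in WT. Thinned to 1000 UMIs, 69.5% of CML and 6.91% of WT Dntt cells had a Hspa1b UMI, against 80.3% and 14.1% at full depth.

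The heat shock difference was not particular to Dntt cells. In cells with 0 Dntt UMIs Hspa1b stood at 3423 CPM in CML and 341 CPM in WT, a 10.1-fold ratio, and 5 of the 14 list genes were 2-fold higher there. Hspa1b stood at 3347 and 132 CPM in the Hlf cells, at 3613 and 807 CPM in the Csf1r cells and at 6034 and 467 CPM in the T cells of the CML and the WT untreated library, and a UMI was found in 86.1% of CML and 32.0% of WT erythroid cells. The ratio was larger in Dntt cells by 1.66 on the log2 scale for Hspa1b (1.44 to 1.87) and by 2.10 for Hspa1a (1.74 to 2.47), and these were among 4 of 1984 genes with a difference of 1 or more, another 4 being at -1 or less. Within CML, Hspa1b was higher in Dntt cells (4558 CPM) than in cells with 0 Dntt UMIs (3423 CPM), and within WT it was lower (144 and 341 CPM).

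Immediate early genes, which are transcribed within minutes of a stimulus and also of tissue handling, were the second group higher in CML. Of 19 measured, 8 were higher in CML by 2-fold or more and none was that much lower; the median log2 ratio was 0.91. Fosb stood at 528 CPM in CML and 170 CPM in WT, and Jun at 2229 and 1003 CPM, both subunits of the AP-1 factor. The phosphatase Dusp1 stood at 565 CPM in CML and 219 CPM in WT, the factor Klf6 at 485 and 180 CPM, and the antiproliferative Btg2 at 451 and 173 CPM. The group did not move as 1: Dusp2 stood at 734 CPM in CML and 968 CPM in WT, Nr4a1, which antigen receptor signals induce, at 136 and 194 CPM, and Ier5 at 53.9 and 95.5 CPM. In cells with 0 Dntt UMIs 8 of 18 measured genes were likewise 2-fold higher in CML, with a median of 0.92. Each genotype was 1 library, so that handling cannot be told apart from genotype.

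**Figure D4:**
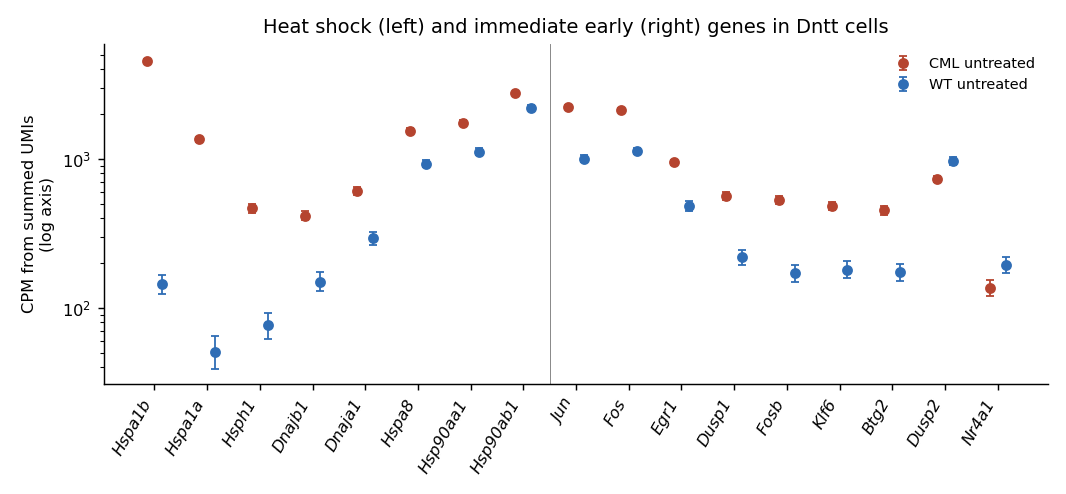
Summed level (CPM, log axis) of heat shock and immediate early genes in Dntt cells, CML untreated and WT untreated, with counting intervals. Hspa1b stands at 4558 CPM in CML and 144 CPM in WT Dntt cells, while Dusp2 and Nr4a1 lie lower in CML.

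Among the remaining genes higher in CML, Ifitm1, a membrane protein that interferon can induce and that stem cells also make, stood at 879 CPM in CML and 259 CPM in WT Dntt cells (3.40-fold) and was found in 78.4% and 37.5% of cells, or 46.7% and 19.7% when thinned. In cells with 0 Dntt UMIs its log2 ratio was 0.81, and in erythroid cells it was found in 29.4% of CML (median 8201 UMIs) and 24.2% of WT cells (median 6378 UMIs). The rest of the interferon genes did not follow it: of 21 list genes measured none was 2-fold higher and 4 were lower, the median being -0.48, Rtp4 standing at 63.3 CPM in CML and 116 CPM in WT. Rhob, a small GTPase, stood at 209 CPM in CML and 88.5 CPM in WT, and Utp18, which works in ribosome assembly, at 126 and 55.9 CPM. The CDK inhibitor Cdkn2c stood at 87.0 CPM in CML and 28.0 CPM in WT, and Uhrf1, which keeps DNA methylation through replication, at 80.6 and 28.0 CPM.

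Lymphoid priming genes were level or lower in CML. Flt3 stood at 547 CPM in CML and 620 CPM in WT (log2 ratio -0.18, -0.31 to -0.05), Satb1 at 511 and 588 CPM (-0.20) and Il12a at 310 and 395 CPM (-0.35). Il12a was found in 47.9% of CML and 63.8% of WT Dntt cells (19.3% and 32.9% thinned; 5.47% and 2.34% of erythroid cells), and the 5% of cells with most held 45.6% of its UMIs in CML and 22.2% in WT. Il12a was therefore in fewer CML cells and more uneven among them. Cd52 stood at 389 CPM in CML and 488 CPM in WT, Cnn3 at 141 and 233 CPM, and the GTPase Gimap6 at 62.8 and 120 CPM. Of the 19 list genes measured none was 2-fold higher and 5 were lower, the median being -0.54, against -0.38 in cells with 0 Dntt UMIs. The 5 were the plasma cell transcript Igkc, with a log2 ratio of -3.63, Ly6d (-1.33) and Rag2 (-1.17), both on at most 24 UMIs, Lsp1 (-1.12) and Ighm (-1.07).

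The transcription factors behind the lymphoid programme stood near equality. Ikzf1, the Ikaros factor that opens lymphoid genes, stood at 346 CPM in CML and 337 CPM in WT, Mef2c at 486 and 480 CPM, Tcf4 at 309 and 353 CPM, Sox4 at 473 and 558 CPM and Bcl11a at 307 and 269 CPM. Of 18 measured, 1 was 2-fold higher and 2 were lower, the median being -0.05. The T lineage factor Tcf7 was the higher one, at 28.2 CPM in CML and 12.4 CPM in WT, and the B cell repressor Bach2 was lower, at 17.3 and 34.9 CPM, both at a low level; the other lower one was Id3 at 1.98 and 11.6 CPM.

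Of the Notch and dendritic genes, Hes1 and Irf8 were 2-fold lower in CML and most others were less than 2-fold apart. Of 7 early T cell and Notch genes measured 1, Hes1, was lower and 1, Tcf7, was higher, the median being -0.28. This median turned to 0.415 among cells of 2000 to 6000 UMIs. Of 8 plasmacytoid and dendritic genes measured 2, Irf8 and Ly6d, were lower and 0 higher, the median being -0.43. Hes1 stood at 61.8 CPM in CML and 221 CPM in WT, 3.57-fold lower in CML, and was found in 13.5% of CML and 31.25% of WT Dntt cells (3.86% and 20.4% thinned), against 7.46% and 7.81% of erythroid cells. In cells with 0 Dntt UMIs its log2 ratio was -0.84, against -1.84 in Dntt cells. Notch1 stood at 91.0 CPM in CML and 159 CPM in WT, and Notch2 at 32.6 and 62.1 CPM, while Nrarp, another Notch target, stood at 12.4 and 10.1 CPM. Irf8 stood at 104 CPM in CML and 303 CPM in WT (log2 ratio -1.54, and -1.28 in cells with 0 Dntt UMIs) and was found in 32.8% and 47.7% of Dntt cells. Runx2, a factor of plasmacytoid dendritic cells, stood at 154 CPM in CML and 280 CPM in WT, with a ratio near 1 in cells with 0 Dntt UMIs (-0.01). Mpeg1, a pore protein of phagocytes, stood at 39.1 CPM in CML and 101 CPM in WT, Egfl7, a secreted protein of endothelium and stem cells, at 118 and 254 CPM, and Lsp1, an actin binding protein of leukocytes, at 67.7 and 148 CPM.

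Several B lineage and plasma cell transcripts were lower in CML, and part of the difference lay in few cells. Ighm stood at 315 CPM in CML and 663 CPM in WT and was found in 63.7% and 76.6% of cells. In cells with 0 Dntt UMIs it stood at 630 CPM in CML and 1513 CPM in WT. Its log2 ratio was -1.26 there, against -1.07 in Dntt cells. The plasma cell transcripts Igkc (171 CPM in CML and 2114 CPM in WT), Igha (14.3 and 800 CPM) and Jchain (4.94 and 542 CPM) gave the lowest ratios among genes with at least 100 CPM, and the 5% of WT cells with most held 94.2%, 99.3% and 99.7% of their UMIs. Igkc was found in 43.2% of CML and 43.75% of WT Dntt cells, and in 39.8% of CML and 52.3% of WT erythroid cells, so its share was near background. Without the cells that carry mature-cell markers, among which Jchain and Igha themselves count, the log2 ratios were -0.13 for Igkc, -0.35 for Igha and -1.15 for Jchain. Of 9 early B cell genes measured 5 were lower and 0 higher, all 5 of them under 20 CPM on both sides. Immunoglobulin genes share sequence, and their single values are uncertain.

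The granule enzyme genes Mpo and Elane were lower in CML as summed levels. Mpo stood at 118 CPM in CML and 246 CPM in WT and was found in 32.0% and 35.5% of Dntt cells. Elane stood at 71.7 CPM in CML and 206 CPM in WT, yet was found in 12.4% of CML and 6.58% of WT cells, and the top 5% of cells held 85.5% and 98.5% of its UMIs. Among cells of 2000 to 6000 UMIs the Elane ratio turned round to 1.56, and without the cells with at least 30 granule enzyme UMIs it was -0.20 and that of Mpo -0.90. The other enzymes stood at 327 CPM in CML and 448 CPM in WT (Prtn3) and 286 and 342 CPM (Ctsg), and the list of 13 granulocyte-monocyte genes had none higher and 3 lower, the median being 0.0025. Mast cell transcripts were higher in CML in 4 of 4 measured genes, but Gzmb came from 1 CML cell (0.386%), and the list median turned to -0.54 without cells with mature-cell markers.

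Most signalling and growth genes were less than 2-fold apart. Abl1, the kinase fused to Bcr in the human disease, stood at 135 CPM in CML and 100 CPM in WT, and Bcr at 19.8 and 25.6 CPM; counts per gene hold no fusion. Among STAT5 targets 0 of 13 were higher and 1 lower, Socs2 at 17.3 CPM in CML and 63.7 CPM in WT, while the cytokine induced kinase Pim1 stood at 1860 and 1586 CPM, Myc at 998 and 576 CPM and the survival gene Mcl1 at 1026 and 578 CPM. Kit stood at 133 CPM in CML and 123 CPM in WT, and Cd34 at 474 and 689 CPM. Ly6a, which encodes the sorted Sca1 antigen, stood at 134 CPM in CML and 127 CPM in WT Dntt cells, but at 70.9 and 193 CPM in cells with 0 Dntt UMIs, a difference of 1.52 between the log2 ratios (1.23 to 1.82). The cycle genes were level: 1 of 22 S phase genes, Uhrf1, and 0 of 22 G2 and M phase genes were 2-fold apart, with medians of 0.02 and -0.10. At 1000 UMIs per cell, 66.0% of CML and 65.1% of WT Dntt cells had an S phase UMI and 41.7% and 40.1% a G2 or M phase UMI, against 93.4% and 84.2%, and 69.9% and 60.2%, at full depth.

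**Figure D5:**
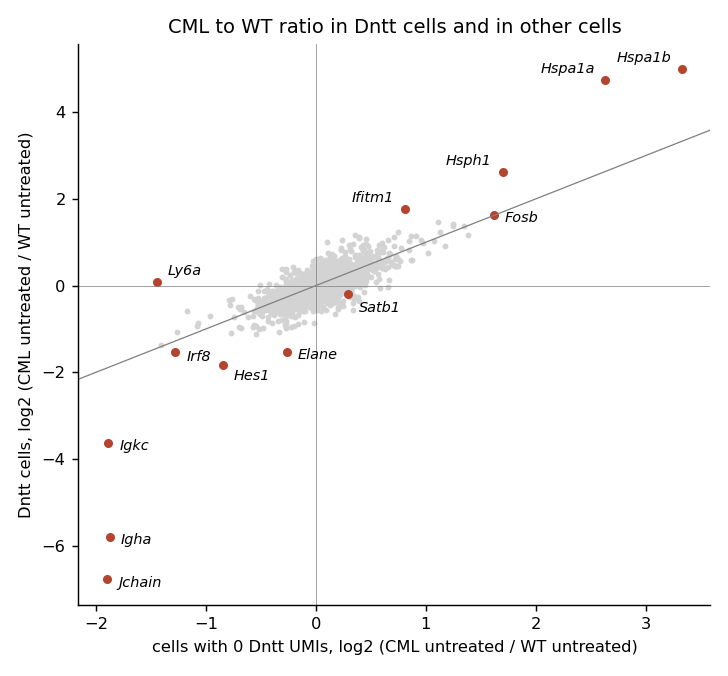
Log2 ratio of CML untreated over WT untreated in cells with 0 Dntt UMIs (x axis) and in Dntt cells (y axis), 1 point per gene, Xist left out. Hspa1b and Hspa1a lie above the diagonal, and Jchain, Igha, Igkc and Hes1 below it.

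The imatinib libraries held too few Dntt cells for a comparison of their programmes. With 30201 UMIs in 16 CML imatinib cells and 33631 in 19 WT imatinib cells, a gene at 0 UMIs allowed a level of up to 99.3 CPM in CML and 89.2 CPM in WT. By the same rule 11 of 2270 genes were higher in CML imatinib than in CML untreated Dntt cells (0.485%) and 1253 lower (55.2%), and 10 of 2268 higher (0.441%) and 1080 lower (47.6%) in WT imatinib than in WT untreated. The 50 UMIs needed on the higher side were worth 1656 CPM in CML imatinib and 1487 CPM in WT imatinib Dntt cells. In the deeper untreated libraries the floor was 50 CPM, so the counts of higher and lower genes cannot be compared. A single UMI was worth 33.1 CPM in CML imatinib and 29.7 CPM in WT imatinib, and the part of this coarse scale in the counts of lower genes was not tested. The 11 higher genes in CML were Elane, Mpo, Prtn3, the predicted gene Gm42418 and 7 ribosomal protein genes, and the 10 in WT were Elane, Mpo, Prtn3, Ctsg, S100a8, S100a9, Gm42418 and 3 ribosomal protein genes. Elane stood at 4139 CPM in CML imatinib and 71.7 CPM in CML untreated Dntt cells, and at 4906 CPM in WT imatinib and 206 CPM in WT untreated ones. Mpo stood at 2947 and 118 CPM in CML and 1576 and 246 CPM in WT. Both were also higher with imatinib in cells with 0 Dntt UMIs. Elane stood there at 6811 and 1121 CPM in CML and 9486 and 1344 CPM in WT. Mpo stood there at 4724 and 729 CPM in CML and 5818 and 919 CPM in WT. In WT S100a9 stood at 1606 CPM with imatinib and 0.777 CPM without, and S100a8 at 1546 and 2.33 CPM. At least 3 UMIs of mature-cell markers, S100a8 and S100a9 included, were found in 4 of 16 CML imatinib (25%) and 7 of 19 WT imatinib (36.8%) Dntt cells, and their part in these values was not tested. At least 2 Mpo UMIs were found in 50% of the CML imatinib Dntt cells and in 73.5% of the CML imatinib cells with 0 Dntt UMIs. In WT imatinib they were found in 5 of 19 Dntt cells (26.3%) and in 76.2% of cells with 0 Dntt UMIs.

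Flt3 could not be told apart between imatinib and untreated Dntt cells at this depth. It stood at 331 CPM on 10 UMIs in CML imatinib (159 to 609 CPM) and 547 CPM in CML untreated Dntt cells. In WT it stood at 357 CPM on 12 UMIs with imatinib (184 to 623 CPM) and 620 CPM without; both intervals hold the untreated level. Xist stood at 0 CPM in CML imatinib and 3017 CPM in CML untreated Dntt cells and Eif2s3y at 166 and 2.47 CPM, so that a difference in sex cannot be told apart from treatment in CML. Satb1 stood at 199 CPM on 6 UMIs in CML imatinib (72.9 to 432 CPM) and 208 CPM on 7 UMIs in WT imatinib (83.7 to 429 CPM). Both intervals lay under the untreated levels of 511 and 588 CPM. Il12a was found in 1 of 16 CML imatinib and 0 of 19 WT imatinib cells. In CML imatinib it stood at 132 CPM on 4 UMIs (36.1 to 339 CPM), an interval that holds the untreated 310 CPM. In WT imatinib it stood at 0 CPM (up to 110 CPM), under the untreated 395 CPM. Rgs1, a brake on G protein signals, stood at 33.1 CPM in CML imatinib and 596 CPM in CML untreated cells and at 238 and 801 CPM in WT, resting on 1 and 8 UMIs with imatinib. In CML Egr1 and Mcl1 also rested on 2 and 3 UMIs with imatinib, and in WT Pim1 stood at 268 CPM with imatinib and 1586 CPM without. Between the imatinib libraries 104 genes could be tested, and 0 were higher (0%) and 4 lower (3.85%) in CML imatinib than in WT imatinib Dntt cells.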

How the data were processed

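Dntt cells of 4 inDrop libraries, 1 per group, were analysed. The deposited files hold a normalized signal per gene and cell; Partek 8.0, Bowtie 1.1.1 and the genome builds GRCm38 and mm10 are listed in the submitters' processing notes, and what each did is not given in the sources used. Every value was a whole multiple of the smallest value of its cell (100% of values within 0.02), so division by it gave whole UMIs, which were filtered as the report states. UMIs were summed over cells and scaled to CPM, and ratios were given exact conditional binomial intervals, levels exact Poisson intervals and shares Clopper-Pearson intervals at 95%. Fold changes were calculated without a pseudocount; ranks used 1 CPM added. Cell counts per group set the precision, since the imatinib libraries held 16 and 19 Dntt cells. With 1 library per group no test across samples was possible. Python 3.11.15 with numpy 2.4.6, pandas 2.3.3, scipy 1.17.1 and matplotlib 3.10.9, and R 4.3.3 with edgeR 4.0.16 for TMM scaling, were used.

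Named genes were the 12 highest and 12 lowest ratios of CML untreated over WT untreated among genes called with at least 100 CPM (predicted, ribosomal and mitochondrial genes left out), up to 5 members of a list with at least 20 CPM, the genes at both ends of the comparisons between cell classes, and a set of lymphoid, sorting, fusion and sex-linked genes; others named were chosen after their values were seen. Members and the 34 gene lists were chosen with earlier results of these data known. Counts for CML untreated against WT untreated Dntt cells were also simulated with counting error only, the changed genes having at least 100 CPM. On these the call rule found 200 of 200 genes changed 3-fold and 0 of 200 changed 1.5-fold, and called 0 unchanged genes. The simulation held no spread between cells, libraries or animals, so it checks the working of the rule and gives no rate of false calls in these data. The alternatives were other Dntt minima, depth windows, thinning, scalings, floors and folds, and cells left out by markers. Values of some list members are not reported here.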

Additional observations from a re-analysis of the deposited data

Results flagged for a closer look

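Among the genes whose ratio of imatinib over untreated Dntt cells had opposite signs in the CML and WT libraries, 4 were picked out. The number of such genes over all was not counted. The differences were not tested, with 1 to 35 UMIs in each imatinib library. For Hspa1b the CML minus WT difference was -5.318 on the log2 scale, from 828 CPM in CML imatinib, 4558 in CML untreated, 1041 in WT imatinib and 144 in WT untreated. It was -5.731 for Klf6 (33.1, 485, 654 and 180 CPM in the same order), -2.948 for Dusp1 (199, 565, 595 and 219 CPM) and -2.647 for Hspa1a (762, 1349, 178 and 50.5 CPM).

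Another 4 were picked from genes whose CML untreated to WT untreated ratio had opposite signs in Dntt cells and cells with 0 Dntt UMIs. Such genes were again neither counted over all genes nor tested, and Ly6a (log2 ratios 0.08 and -1.45) was a further one. The difference was -0.495 for Satb1, with log2 ratios of -0.20 in Dntt cells and 0.29 in the others, and -2.496 for Socs2, with -1.88 and 0.62. It was 1.855 for Tcf7, with 1.18 and -0.67, and 0.695 for Xbp1, a plasma cell factor, with 0.39 and -0.30.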

How the results depend on the processing

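No paired analysis was possible because each group was 1 library. Of 32 named genes that were 2-fold apart between CML untreated and WT untreated Dntt cells, 19 stayed so under all 12 alternatives that recomputed them; over 377 values 374 kept their direction and 336 their 2-fold size. Many of the 32 were named because their ratios were the largest, so they do not stand for all called genes. Under TMM scaling the all-gene median shifted by -0.0030. Of the 32 named genes, Cpa3 turned round with at least 3 Dntt UMIs (-0.651) and without cells with mature-cell markers (-0.55). Elane turned round among cells of 2000 to 6000 UMIs (1.561). Below the call floor, Ms4a3 turned from -1.182 to 0.644 among cells of 2000 to 6000 UMIs. Prkdc turned from -1.31 to 0.971 when thinned to 1000 UMIs with at least 1 Dntt UMI. Of list medians at least 2-fold apart, only that of the mast cell list turned round. It was -0.632 with at least 3 Dntt UMIs, -0.535 without cells with mature-cell markers and -1.204 among cells of 2000 to 6000 UMIs. Of the 34 list medians 17, most of them near 0, changed sign under at least 1 alternative, and besides the mast cell list 7 reached 0.25 or more on the other side. These were early T cell and Notch (-0.279, up to 0.415), erythroid (-0.251, up to 0.262), quiescence (-0.219, up to 0.371), mature T and NK (0.146, down to -1.413), neutrophil (0.072, down to -0.667), CML stem cell markers (0.12, down to -0.324) and DNA end joining (0.015, down to -0.263). Mpo lost its 2-fold size under 8 alternatives, Hdac7 under 6 and Elane under 5.

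Of genes higher (51) and lower (34) in CML, the counts were 151 and 60 with a floor of 20 CPM, 26 and 12 with 100 CPM, 7707 and 3160 with no floor, 244 and 232 at 1.5-fold, and 16 and 15 after thinning to 1000 UMIs with at least 1 Dntt UMI; 68 were lower among cells of 2000 to 6000 UMIs and 74 with totals without ribosomal, mitochondrial and haemoglobin genes. Of the 51 higher and 34 lower genes, 50 and 34 were called again under TMM scaling and 47 and 29 among cells of at least 2000 UMIs. With the CPM of single cells averaged, 37 and 18 were called again. Among cells of 2000 to 6000 UMIs 21 and 11 were, with 2553 genes tested, and after thinning 13 and 6, with 829 tested. The share of Dntt cells in CML imatinib was 0.6967% with at least 1 Dntt UMI, 0.0974% thinned to 1000 UMIs and 0.1548% thinned to 500. With at least 1 and at least 3 Dntt UMIs and thinned to 1000 and 500, it was 11.61, 6.464, 3.298 and 1.484% in CML untreated and 13.22, 8.078, 5.143 and 2.934% in WT untreated. In WT imatinib it was 0.2387% with at least 3 Dntt UMIs, 0.1394% thinned to 1000 and 0.1432% thinned to 500. The following were chosen after seeing the data. With at least 1 Dntt UMI, 37 genes were higher in CML imatinib than in CML untreated, and with a floor of 200 CPM 217 were lower, as were 147 in WT imatinib against WT untreated. Leaving out cells with at least 30 granule enzyme UMIs also belongs to these. The cause of these changes was not tested. Depth limits every statement on the imatinib libraries.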

Other observations

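Dntt UMIs were also found in cells of other types in the untreated libraries. Among cells with at least 3 UMIs of the T cell receptor complex genes, at least 2 Dntt UMIs were found in 3 of 125 CML cells (2.4%, 0.498 to 6.85%) and 12 of 106 WT cells (11.3%, 5.99 to 18.9%). Among cells with at least 5 UMIs of Jchain, the joining chain of secreted antibodies, they were found in 0 of 53 CML and 5 of 105 WT cells (4.76%). Among cells with at least 30 UMIs of the granule enzymes Mpo, Elane, Prtn3 and Ctsg, they were found in 8 of 531 CML cells (1.51%) and 8 of 425 WT cells (1.88%), against 0.995% of CML and 0.781% of WT erythroid cells.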
